A study of Mus musculus with 8 samples.

Results

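The genes described here encode the receptors for glutamate and GABA, the main excitatory and inhibitory transmitters of the brain. They were found by symbol after the accessions of the array probes had been matched to a RefSeq table: the AMPA (Gria), delta (Grid), kainate (Grik), NMDA (Grin1, Grin2 and Grin3) and metabotropic (Grm with a number) glutamate receptors, and the GABA-A (Gabra, Gabrb, Gabrg, Gabrd, Gabre and Gabrr) and GABA-B (Gabbr) receptors. Of 46 such symbols in the table, 43 had a probe, out of 18350 genes with a probe in all. Gabrr3, Grin1os and Grin3a had none matched. A probe was kept if both arrays of some group had it well above background by the scanner software's call, and 31 of the 43 receptor genes had such a probe, among 13332 kept genes in the whole series.

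RNA came from secondary neurospheres, floating clusters that adult hippocampal stem and progenitor cells form with FGF2, EGF and heparin when primary spheres are taken apart and replated. By its title the series is about losing and gaining the function of SIRT1, an NAD-dependent deacetylase, which the polyphenol resveratrol is used to activate. Sirt1 KO cells and their WT counterparts were of the strain label 129/ICR and were grown for 6 days, with 2 arrays each, replicate 1 from a female source and replicate 2 from a male one. Resveratrol and DMSO (solvent) cells were wild type, of the strain C57BL/6 and male, and were grown for 5 days and then exposed for 24 hours, again with 2 arrays each; the resveratrol dose is 10 in the label, with the unit written as "mm". All source animals were 7 to 9 weeks old. The labels used here name the knockout without an allele and do not say how many animals or cultures stood behind an array, so the p-values rest on a spread that may be technical.

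Levels are given as the log2 of the processed signal relative to the 75th percentile of the array, a scale on which 0 is a fairly bright probe. In each pair of values the first is replicate 1. The 75th percentile itself was 716 to 871 intensity units in replicate 1 of the groups, against 249 to 377 in replicate 2, and the share of probes well above background was lowest on WT 2 (53.0%) and highest on DMSO 1 (72.0%). No spot was saturated (0 on each array). WT 2 and Sirt1 KO 2 shared a slide and a scan day of their own, whereas Sirt1 KO 1 lay on slide 2 and WT 1 on slide 1. Slide 1 also held resveratrol 1 and DMSO 1, and slide 2 resveratrol 2 and DMSO 2. Sirt1 mRNA, the target itself, read 0.42 and -0.07 in Sirt1 KO, 0.16 and 0.17 in WT, 0.09 and 0.31 with resveratrol and 0.10 and 0.10 with DMSO. Its Sirt1 KO minus WT difference was 0.01 (standard error, SE, 0.24), and since the place of the probe relative to the deleted part is not known here, these values check nothing about the genotype.

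AMPA, kainate and NMDA receptors are tetrameric cation channels opened by glutamate. AMPA receptors carry fast excitation, NMDA receptors open only when the membrane is depolarised and let calcium in, and kainate receptors modulate release and excitability. Metabotropic glutamate receptors and GABA-B receptors act through G proteins. GABA-A receptors are pentameric chloride channels. In dividing neural progenitors, where intracellular chloride is high, GABA depolarises the cell, and GABA is known to influence the proliferation of hippocampal stem cells. Oligodendrocyte precursors and astrocytes carry many of the same receptors.

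Most glutamate receptor channels were detected in the spheres, while several neuronal GABA-A and metabotropic subunits were not. All 4 AMPA genes, 4 of 5 kainate genes and both GABA-B genes (2 of 2) were well above background on all 8 arrays, as were 3 of 6 NMDA genes, 7 of 16 GABA-A genes and 2 of 8 metabotropic genes. That is 23 of 43 receptor genes on all 8 arrays, a further 15 on some arrays and 5 on none. Of all 18350 genes, 11694 had a probe well above background on all 8 arrays, a larger share than among the receptor genes. Among the 5 genes that no array measured well above background were Gabra6, the alpha subunit of cerebellar granule cells, Gabrr2, a rho subunit best known from retina, and the presynaptic glutamate receptors Grm2 and Grm8. A further 7 were detected but not on both arrays of any group by 1 probe, among them Gabre, Gabrg3, Grik3, Grm4, Grm6 and Grm7.

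By array, the number of receptor genes well above background was 33 and 31 in Sirt1 KO, 34 and 24 in WT, 33 and 30 with resveratrol and 35 and 30 with DMSO. WT 2 stood apart, with 55.8% of the receptor genes against 66.3% of all genes. On the other 7 arrays the share was 69.8% to 81.4% of the receptor genes and 69.8% to 78.1% of all genes. WT 2 also had the lowest 75th percentile of all arrays and the highest detection floor, the lowest centred signal among its probes well above background, at -3.92, beside -6.08 to -4.46 on the other arrays. The part of this floor in the missing detections was not tested.

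**Figure D1:**
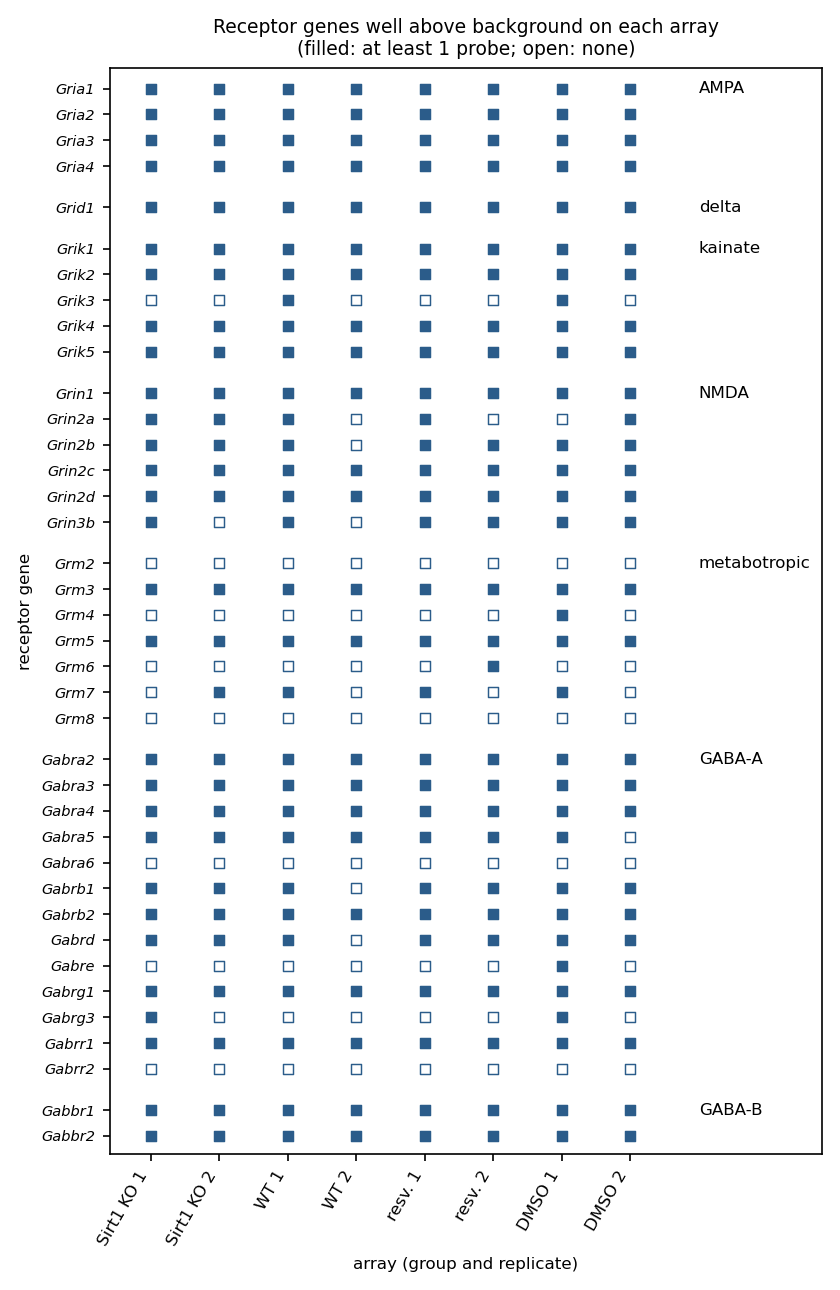
Squares show, for each of 38 receptor genes (rows, by class) and each of the 8 arrays (columns, by group and replicate, with resv. for resveratrol), whether at least 1 probe was well above background (filled) or none was (open). The 4 AMPA genes are filled on all 8 arrays, 4 genes are open on every array, and WT 2 has the fewest filled squares, with 23.

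Between Sirt1 KO and WT, no receptor gene passed the test: limma called 0 of 31 receptor genes and 0 of 13332 genes (0% of all genes in each direction) at an adjusted p of 0.05, with 158 of all genes at an unadjusted p under 0.05 and a smallest adjusted p of 1. With replicate number as a block, 1 receptor gene rose, Gabbr1, the GABA-B subunit that binds GABA. In that fit 0.338% of all genes rose and 0.09% fell, with 0 receptor genes among the falls. The number stands for sex and scan day together in these groups, and the replicate 2 arrays also shared a slide of their own. With slide as a block, fitted over all arrays, 0 genes passed in either direction (0% of all genes). On the level of direction, 8 of 31 receptor genes were higher in Sirt1 KO in both the female and the male pair (23.4% of all genes) and 16 were lower in both (32.4% of all genes). The median difference over the 31 was -0.12, beside -0.03 over all genes. In these mixed cultures, fewer cells of a type and less RNA per cell cannot be told apart.

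Resveratrol against DMSO gave no call either, with 0 of 31 receptor genes and 0 of all genes (0% of all genes in each direction; 203 of all genes, or 1.52%, at an unadjusted p under 0.05, 0 of them receptor genes). With replicate number as a block, again 0 receptor genes passed (0.48% of all genes rose and 0.0675% fell), and with slide as a block over all arrays 0 of all genes passed. In both slide pairs 6 receptor genes were higher (35.5% of all genes) and 13 lower (33% of all genes), with a median of -0.11 beside 0.01 over all genes. The difference between the 2 differences had 0 calls among the receptor genes and 0 among all genes (126, or 0.945%, at an unadjusted p under 0.05). With replicate number as a block, Gabbr1 was past that test, at 1.48 (adjusted p = 0.0214; 0.165% of all genes were called in this direction and 0.203% in the other). With slide as a block it was not (adjusted p = 0.636), and 0 of all genes passed.

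The WT and DMSO groups, both without SIRT1 loss or resveratrol, differ in strain (129/ICR against C57BL/6) and in the sex of replicate 1. They also differ in the last day of culture, which the DMSO cells spent in solvent, and in the slide and scan day of replicate 2. These cannot be told apart. Of the 3 comparisons, WT minus DMSO held the widest fitted difference of a receptor gene, that of Grin2c. limma called 6 of all genes higher (0.045%) and 4 lower (0.03%), with 0 receptor genes in either direction and 747 of all genes (5.6%) and 4 receptor genes at an unadjusted p under 0.05. With replicate number as a block, 5 receptor genes rose, Grin2c, Gabra2, Grin1, Grm5 and Gabra3 (6.21% of all genes rose). In that fit 3 fell, Gabbr1 and Gabrb1 among them (5.57% of all genes fell). That block was fitted within each arm, genotype or treatment, and no label pairs a WT array with a DMSO array. The spread between replicates is thereby left out of the error of this comparison across arms, so these p-values may be too small. With slide as a block, Grin2c and Gabra2 rose (0.495% of all genes) and no receptor gene fell (0.593% of all genes). In both replicate pairs 16 of 31 receptor genes were higher in WT than in DMSO (32.6% of all genes) and 6 were lower (27.7%), and the median was 0.38 beside 0.02 over all genes. This comparison shares the WT arrays with Sirt1 KO minus WT, so a low or high WT value enters both with opposite sign.

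**Figure D2:**
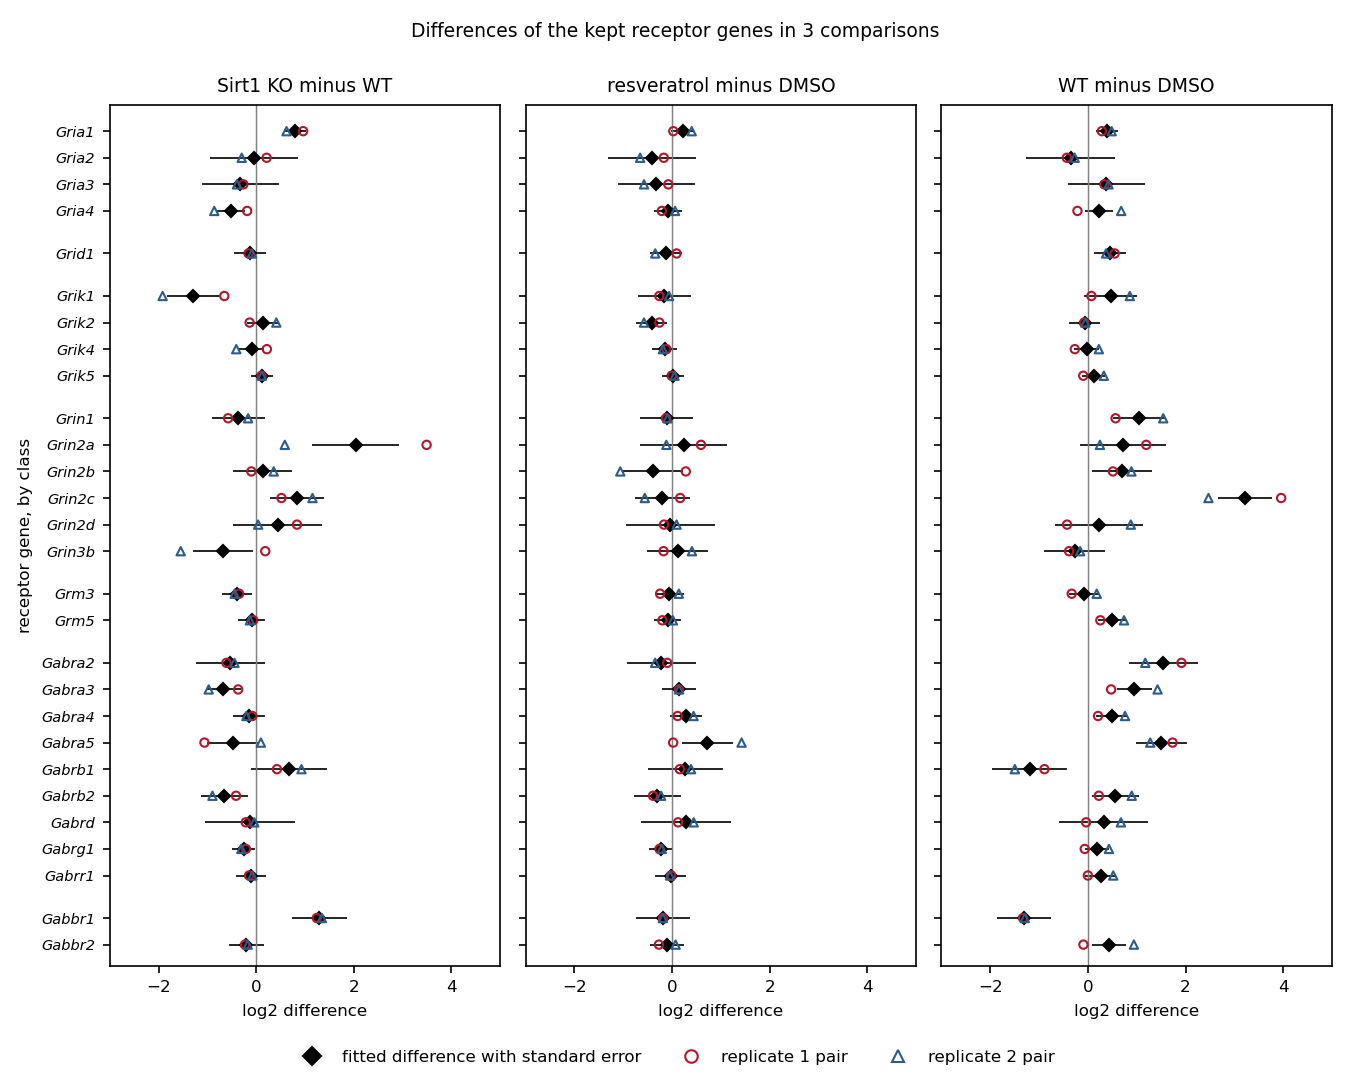
Points show log2 differences (x axis) of 28 kept receptor genes (rows, by class) in the comparisons of Sirt1 KO with WT, resveratrol with DMSO and WT with DMSO (first minus second). Diamonds are fitted differences with their standard errors (n = 2 arrays per group), circles the difference within replicate 1 and triangles within replicate 2. Grin2c lies farthest from 0 in WT minus DMSO, at 3.21, and the resveratrol differences shown lie between -0.42 and 0.72.

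For sequence context, the RefSeq promoters of Grin2c and Gabbr1 (250 bases before to 50 after the start, build GRCm38.p6) are given here with each CG in capitals. These are 2 of the receptor genes called in a fit with a block. Gabra2, called with either block in WT minus DMSO, is not shown. The 2 genes were chosen after the values were seen, and 29 of the 43 receptor genes had an entry. The letters are those of the reference genome, not of the animals used. The Grin2c promoter lies at chr11:115267194-115267493 on the minus strand and the Gabbr1 promoter at chr17:37045716-37046015 on the plus strand.
Grin2c: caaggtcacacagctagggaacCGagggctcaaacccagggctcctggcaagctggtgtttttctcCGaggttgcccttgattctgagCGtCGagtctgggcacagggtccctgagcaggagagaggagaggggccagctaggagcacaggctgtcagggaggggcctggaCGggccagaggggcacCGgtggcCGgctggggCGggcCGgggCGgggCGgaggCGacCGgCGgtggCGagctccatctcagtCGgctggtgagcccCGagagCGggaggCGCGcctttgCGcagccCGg
Gabbr1: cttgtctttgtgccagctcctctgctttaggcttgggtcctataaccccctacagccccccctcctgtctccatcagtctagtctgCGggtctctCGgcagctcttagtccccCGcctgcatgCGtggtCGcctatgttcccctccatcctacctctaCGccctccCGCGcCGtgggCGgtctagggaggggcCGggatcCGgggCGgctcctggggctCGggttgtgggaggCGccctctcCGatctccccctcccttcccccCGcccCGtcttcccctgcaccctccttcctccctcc
The Grin2c window held 22 CG and the Gabbr1 window 18, where the median of 32851 promoters of this length was 7. Fewer CG than these were held by 76.9% and 70.3% of all promoters, so neither count was rare. The GC box GGGCGG, read on either strand, occurred 3 times in each of them and at least once in 35.7% of all promoters. These counts describe the windows and do not bear on the differences.

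The AMPA subunits were all measured on every array. Gria1, the GluA1 subunit whose insertion at synapses underlies many forms of plasticity, read 0.53 and 0.23 in Sirt1 KO, -0.43 and -0.40 in WT, -0.69 and -0.48 with resveratrol and -0.72 and -0.88 with DMSO. Both Sirt1 KO arrays lay above the other 6, by 0.96 over WT in the female pair and 0.62 in the male pair. The fitted difference was 0.79 (SE 0.23; unadjusted p = 0.0105 and adjusted p = 1 by limma; adjusted p = 0.0888 with the replicate block), and a second Gria1 probe differed by 0.77. On that second probe the groups overlapped, with Sirt1 KO 2 (-0.64) below WT 1 (-0.43). Gria1 was the 1 receptor gene at an unadjusted p under 0.05 in this comparison, beside 1.19% of all genes.

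Gria4, the GluA4 subunit of oligodendrocyte precursors and interneurons, read 2.07 and 1.75 in Sirt1 KO, 2.25 and 2.61 in WT, 2.26 and 1.99 with resveratrol and 2.47 and 1.93 with DMSO. Its Sirt1 KO arrays did not overlap its WT arrays and lay 0.52 lower in the fit (SE 0.29; adjusted p = 1), with -0.19 in the female and -0.86 in the male pair. The other 2 Gria4 probes gave -0.48 and -0.51. On the first of these the groups overlapped, with Sirt1 KO 1 (0.15) above WT 2 (-0.41). Gria2, whose edited GluA2 product blocks calcium entry, read 4.32 and 2.55 in Sirt1 KO, 4.11 and 2.84 in WT, 4.37 and 2.46 with resveratrol and 4.54 and 3.12 with DMSO. Gria3, the GluA3 subunit, read 1.49 and 0.17 in Sirt1 KO, 1.76 and 0.56 in WT, 1.34 and -0.44 with resveratrol and 1.42 and 0.14 with DMSO. For Gria2 and Gria3, replicate 1 was above replicate 2 in each of the 4 groups by more than any group differed from its counterpart. Such a shared replicate direction was seen for 54.8% of the 31 receptor genes (11 lower and 6 higher in replicate 2 of all 4 groups) and for 65.5% of all genes.

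Of the delta receptors, which bind cerebellin and organise synapses, Grid1 read -1.74 and -2.04 in Sirt1 KO, -1.59 and -1.95 in WT, -2.04 and -2.67 with resveratrol and -2.14 and -2.32 with DMSO. Its Sirt1 KO and WT values overlapped. The ligand Cbln1 is described with the pathway genes.

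Grik1, the GluK1 kainate subunit, read -3.64 and -3.50 in Sirt1 KO, -2.98 and -1.59 in WT, -3.31 and -2.51 with resveratrol and -3.05 and -2.45 with DMSO. The Sirt1 KO arrays were the lowest of the 8, and WT 2 the highest. The fitted difference was -1.29 (SE 0.55; adjusted p = 1; -0.65 in the female and -1.92 in the male pair), and a second probe, which was well above background on 7 arrays, gave -1.08 with -0.98 and -1.18 in the pairs. With the replicate block its adjusted p was 0.131.

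The remaining kainate subunits differed less. Grik2, the GluK2 subunit, read -1.49 and -1.27 in Sirt1 KO, -1.35 and -1.68 in WT, -1.54 and -2.20 with resveratrol and -1.28 and -1.63 with DMSO. Grik4, a high affinity subunit, read 1.21 and 1.21 in Sirt1 KO, 0.99 and 1.62 in WT, 1.15 and 1.21 with resveratrol and 1.26 and 1.39 with DMSO. Grik5, its counterpart that needs Grik1 to Grik3 products as partners, read 1.88 and 1.98 in Sirt1 KO, 1.77 and 1.86 in WT, 1.86 and 1.58 with resveratrol and 1.86 and 1.53 with DMSO. Grik5 spanned 0.44 over all 8 arrays, and Sirt1 KO was 0.11 above WT in the fit (SE 0.23).

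The NMDA genes held the widest difference among the receptors. Grin2c, the GluN2C subunit best known from cerebellar granule cells, read 2.40 and 1.51 in Sirt1 KO, 1.88 and 0.36 in WT, -1.91 and -2.67 with resveratrol and -2.08 and -2.11 with DMSO. All 4 arrays of the 129/ICR cultures lay above all 4 arrays of the C57BL/6 cultures. WT exceeded DMSO 9.28-fold (log2 difference 3.21, SE 0.55), by 3.96 in replicate 1, where both arrays lay on slide 1, and by 2.47 in replicate 2. The adjusted p was 0.181 without a block, 9.01e-05 with the replicate block, under the limit given for that fit, and 0.00578 with the slide block. Over the 19 alternatives the difference ran from 2.46 to 3.97 and the adjusted p from 9.01e-05 to 0.918. Sirt1 KO minus WT was 0.84 for Grin2c (SE 0.55; 0.52 and 1.15 in the pairs; adjusted p = 1), with Sirt1 KO 2 below WT 1.

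Grin2a, the GluN2A subunit that comes up as neurons mature, read -1.23 and -3.75 in Sirt1 KO, -4.72 and -4.34 in WT, -5.32 and -4.70 with resveratrol and -5.91 and -4.58 with DMSO. Sirt1 KO 1 alone lay 2.52 above the next array, and WT was well above background on 1 of 2 arrays. The difference of 2.04 (SE 0.89; adjusted p = 1) was 3.49 in the female and 0.59 in the male pair, and without Sirt1 KO 1 it was 0.78. WT minus DMSO was 0.72 for Grin2a (SE 0.89; 1.19 and 0.25 in the pairs; adjusted p = 1), with WT 2 and DMSO 1 not well above background.

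Grin1, the subunit every NMDA receptor needs, read -3.10 and -1.68 in Sirt1 KO, -2.53 and -1.52 in WT, -3.22 and -3.15 with resveratrol and -3.09 and -3.06 with DMSO. Both WT arrays were above both DMSO arrays, by 0.57 and 1.54 (fitted 1.05, SE 0.54; adjusted p = 1, and 0.019 with the replicate block). Grin2b, the GluN2B subunit of immature neurons, read -3.86 and -3.38 in Sirt1 KO, -3.76 and -3.74 in WT, -3.99 and -5.69 with resveratrol and -4.27 and -4.63 with DMSO. Its WT minus DMSO difference was 0.70 (SE 0.61; adjusted p = 1), and no probe was well above background on WT 2. A second kept probe gave 2.60, with DMSO 2 not well above background either.

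Grin2d, the GluN2D subunit of early development and interneurons, read -1.46 and 0.08 in Sirt1 KO, -2.30 and 0.04 in WT, -2.03 and -0.74 with resveratrol and -1.87 and -0.84 with DMSO. In every group replicate 2 was the higher array. Grin3b, a subunit of glycine-gated receptors, read -5.00 and -6.25 in Sirt1 KO, -5.19 and -4.70 in WT, -4.98 and -4.14 with resveratrol and -4.80 and -4.54 with DMSO, and was not well above background on Sirt1 KO 2 and WT 2.

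**Figure D3:**
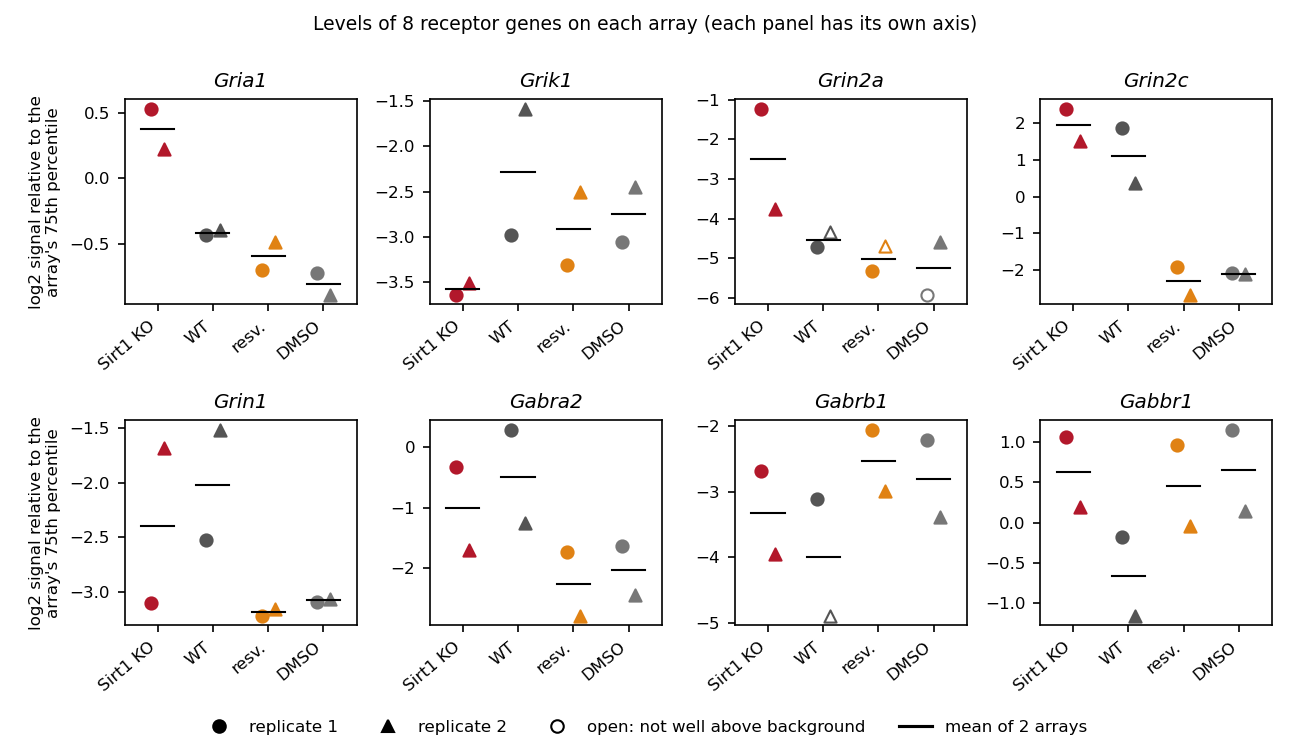
Each panel shows the log2 signal of 1 receptor gene relative to the array's 75th percentile (y axis, its own range) on the 8 arrays, by group (x axis, resv. for resveratrol), with circles for replicate 1, triangles for replicate 2, open symbols where the probe was not well above background and a line at the mean of the 2 arrays. Grin2c separates the Sirt1 KO and WT arrays (0.36 to 2.40) from the resveratrol and DMSO arrays (-2.67 to -1.91), and for Gabbr1 both WT arrays lie below their same-numbered counterparts of the other 3 groups.

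Among metabotropic receptors, Grm5, the Gq-coupled mGluR5 of neural progenitors and astrocytes, read 4.04 and 4.38 in Sirt1 KO, 4.10 and 4.51 in WT, 3.65 and 3.78 with resveratrol and 3.85 and 3.77 with DMSO. Its 4 probes gave Sirt1 KO minus WT differences of -0.41 to -0.10. WT was above DMSO by 0.50 (SE 0.28; 0.25 and 0.74 in the pairs), which was past the test with the replicate block (adjusted p = 0.0217) and not without it (adjusted p = 1). Grm3, the Gi-coupled receptor of astrocytes, read -1.12 and -0.66 in Sirt1 KO, -0.77 and -0.22 in WT, -0.69 and -0.26 with resveratrol and -0.44 and -0.40 with DMSO, and Sirt1 KO was lower than WT in both pairs, by 0.35 and 0.44 (fitted -0.39, SE 0.30; adjusted p = 1).

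Most kept GABA-A genes had lower values in Sirt1 KO than in WT, by amounts that did not pass the test. Of 10 kept genes, 8 were lower in both pairs (32.4% of all genes) and 1 higher (23.4% of all genes), with a median of -0.25 beside -0.03 over all genes. In the fit 9 of 10 were lower. The number was 8 with the slide block and 6 to 7 when 1 of the 4 genotype arrays was left out, and without the filter on dim probes 11 of 16 were lower (median -0.19).

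Gabra2, an alpha subunit of hippocampal and forebrain receptors, read -0.32 and -1.70 in Sirt1 KO, 0.29 and -1.26 in WT, -1.73 and -2.78 with resveratrol and -1.63 and -2.43 with DMSO. WT lay 2.92-fold above DMSO (log2 difference 1.55, SE 0.70; 1.92 and 1.17 in the pairs), with an adjusted p of 0.964 without a block, 0.000964 with the replicate block and 0.0338 with the slide block, and both WT arrays above both DMSO arrays. Sirt1 KO minus WT was -0.53 (SE 0.70; adjusted p = 1), a sign that turned without Sirt1 KO 2 (0.16) or WT 1 (0.25). Gabra5, the alpha subunit of tonic inhibition in the hippocampus, read -3.85 and -3.60 in Sirt1 KO, -2.79 and -3.70 in WT, -4.51 and -3.55 with resveratrol and -4.53 and -4.97 with DMSO. WT was above DMSO by 1.50 (SE 0.52; adjusted p = 0.649), but WT 2 and DMSO 2 were not well above background with this probe, and neither DMSO array was with the second probe. Resveratrol minus DMSO was 0.72 for Gabra5 (SE 0.52; adjusted p = 1), the mean of 0.02 on slide 1 and 1.42 on slide 2.

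Gabra3, an alpha subunit prominent before birth, read -3.06 and -3.05 in Sirt1 KO, -2.69 and -2.07 in WT, -3.02 and -3.36 with resveratrol and -3.16 and -3.50 with DMSO. The WT arrays were the highest of the 8, with Sirt1 KO minus WT at -0.67 (SE 0.35; adjusted p = 1) and WT minus DMSO at 0.95 (SE 0.35; adjusted p = 0.756, and 0.0447 with the replicate block). Gabra4, an alpha subunit of extrasynaptic receptors, read 0.06 and 0.61 in Sirt1 KO, 0.14 and 0.81 in WT, 0.05 and 0.49 with resveratrol and -0.07 and 0.05 with DMSO. Its WT arrays were above its DMSO arrays, by 0.21 and 0.76 in the pairs.

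Gabrb1, a beta subunit, went against its class. It read -2.69 and -3.95 in Sirt1 KO, -3.11 and -4.88 in WT, -2.06 and -2.99 with resveratrol and -2.22 and -3.38 with DMSO. WT minus DMSO was -1.19 (SE 0.78; -0.89 and -1.50 in the pairs; adjusted p = 1, and 0.0209 with the replicate block) and Sirt1 KO minus WT 0.68 (SE 0.78; adjusted p = 1), but WT 2 was not well above background, and normexp on median signals turned both signs (0.48 and -0.69). Without WT 2, Sirt1 KO minus WT was -0.21. Gabrb2, the beta subunit of most adult receptors, read -2.25 and -3.01 in Sirt1 KO, -1.83 and -2.12 in WT, -2.45 and -3.24 with resveratrol and -2.06 and -3.02 with DMSO. All 3 of its probes put Sirt1 KO below WT, by 0.41 to 0.94 (used probe -0.65, SE 0.48; adjusted p = 1), and its Sirt1 KO arrays lay below both WT arrays. Its WT minus DMSO difference was 0.56 (SE 0.48).

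Gabrg1, a gamma subunit also found in glia, read 1.17 and 1.50 in Sirt1 KO, 1.38 and 1.81 in WT, 1.19 and 1.17 with resveratrol and 1.44 and 1.38 with DMSO. It was lower by 0.21 and 0.30 in Sirt1 KO than in WT within the pairs, and by 0.26 and 0.21 with resveratrol than with DMSO, and neither difference passed the test (adjusted p = 1 each). Gabrd, the delta subunit of extrasynaptic receptors, read -5.57 and -3.68 in Sirt1 KO, -5.35 and -3.64 in WT, -5.20 and -3.88 with resveratrol and -5.32 and -4.32 with DMSO, and WT 2 was not well above background. Gabrr1, a rho subunit, read -2.40 and -1.90 in Sirt1 KO, -2.26 and -1.82 in WT, -2.28 and -2.38 with resveratrol and -2.26 and -2.34 with DMSO. For both genes the pairs differed by at most 0.21 between Sirt1 KO and WT.

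Gabrg1, Gabra2, Gabra4 and Gabrb1 are neighbours on chromosome 5 in GRCm38.p6. They did not share a direction between WT and DMSO: the differences were 0.18, 1.55, 0.48 and -1.19. Next to Grin2c, the nearest kept genes Nat9 and Fdxr had WT minus DMSO differences of 0.02 (0.41 and -0.37 in the pairs) and 0.19 (0.38 and 0.01). Next to Gabbr1, Zfp57 and H2-M3 had Sirt1 KO minus WT differences of 0.23 and 0.13. Both took opposite signs in the pairs, with -1.31 and 1.77 for Zfp57 and 0.33 and -0.06 for H2-M3.

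The GABA-B receptor works as a pair of Gabbr1 and Gabbr2 products. Gabbr1 read 1.07 and 0.19 in Sirt1 KO, -0.18 and -1.15 in WT, 0.97 and -0.05 with resveratrol and 1.15 and 0.14 with DMSO. Within each replicate number the WT array was the lowest of the 4 groups, and the Sirt1 KO, resveratrol and DMSO arrays lay within 0.24 of each other. Sirt1 KO was 2.45-fold above WT (log2 difference 1.29, SE 0.56), by 1.24 in the female and 1.35 in the male pair, with an adjusted p of 1 without a block, 0.00777 with the replicate block and 0.315 with the slide block. WT minus DMSO was -1.31 (-1.33 and -1.29 in the pairs; adjusted p = 0.901, and 0.000573 with the replicate block). These comparisons share the 2 low WT arrays. Over the 19 alternatives the Sirt1 KO minus WT difference ran from 0.59 to 1.78 and its adjusted p from 0.00777 to 1.

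A second Gabbr1 probe, on which all 8 arrays were also well above background, read -1.44 and -1.46 in Sirt1 KO, -2.37 and -2.63 in WT, -1.23 and -1.52 with resveratrol and -1.01 and -1.93 with DMSO. It placed Sirt1 KO above WT by 0.93 and 1.17. The last probe read -3.87 and -3.64 in Sirt1 KO and -4.25 and -2.13 in WT, so that the pairs took opposite signs, 0.37 and -1.51. Gabbr2, the subunit that couples to the G protein, read -1.16 and -0.44 in Sirt1 KO, -0.93 and -0.27 in WT, -1.11 and -1.14 with resveratrol and -0.84 and -1.21 with DMSO. Its Sirt1 KO minus WT difference was -0.20 (SE 0.35; adjusted p = 1). The other 2 kept Gabbr2 probes, each well above background on 5 arrays, gave -1.04 and 0.56, so the direction depends on the probe.

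Taking the receptor genes by size, 6 were higher and 5 lower in Sirt1 KO than in WT in both pairs and by at least 0.5 (5.66% and 4.2% of all genes), 1 was higher and 1 lower with resveratrol (6.53% and 3.17%), and 8 were higher and 3 lower in WT than in DMSO (10.2% and 9.65%). For this last comparison the size was applied after its values were seen. Sirt1 KO and WT arrays did not overlap for 5 receptor genes with higher and 4 with lower Sirt1 KO values (7.58% and 7.35% of all genes). For resveratrol and DMSO these numbers were 2 and 4 (10.2% and 8.86%), and for WT and DMSO 11 and 2 (13.5% and 12.7%).

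Genes that make, load and clear the transmitters were read beside the receptors, from lists chosen with earlier results of these data known. Of 28 genes for synthesis, breakdown and transport, 24 were kept and 0 passed the test without a block in any comparison. With the replicate block, in WT minus DMSO only, the glutamate carrier Slc1a6 was past the test at 0.70 (adjusted p = 0.0141; 6.21% of all genes rose). On the lower side were Slc1a1, another, at -0.82 (adjusted p = 0.0411) and the GABA carrier Slc6a11 at -0.55 (adjusted p = 0.0283; 5.57% of all genes fell). With the slide block the adjusted p of Slc1a1 was 0.904. Of the vesicular transporters, Slc17a7 (glutamate) and Slc32a1 (GABA and glycine) were well above background on 0 arrays. The glutamate transporter Slc17a8 was on all 8, and Slc17a6 on 0 Sirt1 KO, 2 WT, 1 resveratrol and 1 DMSO array. The uptake carriers Slc1a3 and Slc1a2 (glutamate) and Slc6a11 (GABA) and the GABA-making enzyme Gad1 were so on all 8. Gad1 read 0.48 and -1.91 in Sirt1 KO, -0.51 and -1.99 in WT, 0.21 and -1.74 with resveratrol and 0.05 and -1.62 with DMSO. The replicates of Gad1 differed by more than its groups. Only Slc6a13, a GABA carrier of the meninges, differed by at least 1 in the same direction in both pairs of a comparison of this list, by 1.68 with resveratrol (SE 0.87; 2.49 and 0.88; adjusted p = 1). The list medians were 0.08 in Sirt1 KO minus WT, 0.01 in resveratrol minus DMSO and -0.26 in WT minus DMSO.

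Of 43 measured genes for auxiliary subunits, anchors and ligands of the receptors, 36 were kept and 0 passed the test without a block. With the replicate block 2 rose, Cbln1 and Kctd12, and 0 fell in WT minus DMSO (6.21% and 5.57% of all genes). The AMPA partners Cacng2 and Cacng3, the scaffold Shank1 and the ligand Cbln4 were well above background on 0 arrays, whereas the AMPA partners Cacng7 and Cacng8 and the scaffold Dlg4 were on all 8. Cacng5, an AMPA receptor auxiliary subunit, read -0.74 and 0.34 with resveratrol and -1.38 and -1.03 with DMSO, higher by 0.64 on slide 1 and 1.36 on slide 2 (SE of the fitted difference 0.41; adjusted p = 1). Cbln1, the delta receptor ligand, was higher in WT than in DMSO by 1.56 (SE 0.36; 1.84 and 1.28 in the pairs; adjusted p = 0.338, 0.00216 with the replicate block and 0.0435 with the slide block). Kctd12, an auxiliary subunit of GABA-B receptors, was higher by 0.83 (SE 0.26; adjusted p = 0.025 with the replicate block). Of 15 chloride transporters and other ligand-gated channels with a probe, 10 were kept and 0 passed without a block. With the replicate block Slc12a2 (0.82, adjusted p = 0.0129) and the acetylcholine receptor gene Chrna4 (0.56, adjusted p = 0.0469) rose in WT minus DMSO (6.21% of all genes). The ATP receptor gene P2rx7 (-0.87, adjusted p = 0.0037) fell (5.57% of all genes). With the slide block the adjusted p was 0.142 for Slc12a2, 0.429 for Chrna4 and 0.119 for P2rx7. Among them the chloride importer Slc12a2, which raises intracellular chloride in immature cells, read 0.44 and -0.06 in Sirt1 KO, 0.84 and 0.03 in WT, -0.11 and -1.03 with resveratrol and -0.10 and -0.66 with DMSO. The glycine receptor alpha genes Glra1, Glra2 and Glra4 were on 0 arrays, while Glrb was on all 8.

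Cell type markers were read on the same arrays, and 0 astrocyte, oligodendrocyte precursor or neuronal markers passed the test without a block in any of the 3 comparisons. Of 12 astrocyte markers 11 were kept, 7 of them higher and 1 lower in Sirt1 KO than in WT in both pairs (23.4% and 32.4% of all genes; median 0.63), and the log2 of their summed level was 7.51 to 8.22 in Sirt1 KO and 6.83 to 7.57 in WT. In WT minus DMSO 3 were higher and 7 lower in both pairs (32.6% and 27.7% of all genes; median -0.87). The DMSO sums were 7.82 to 7.99. With the replicate block 3 astrocyte markers rose and 0 fell in Sirt1 KO minus WT (0.338% and 0.09% of all genes). The 3 that rose were Fgfr3, at 1.22 (adjusted p = 0.0385), Aldoc and Apoe. In WT minus DMSO the same block gave 0 rises and 5 falls (6.21% and 5.57% of all genes). Aldoc, a glycolytic enzyme, and Apoe, a lipid carrier, were 0.95 and 1.45 higher in Sirt1 KO (adjusted p = 1 each, 0.016 and 0.00777 with the replicate block, and 0.488 and 0.43 with the slide block). Of 12 oligodendrocyte precursor markers, all kept, 0 were higher and 11 lower with resveratrol than with DMSO in both pairs (35.5% and 33% of all genes; median -0.22; sums of 7.85 to 8.08 with resveratrol and 8.22 to 8.27 with DMSO), and 4 were higher and 6 lower in Sirt1 KO than in WT. Neuronal markers were kept for 11 of 14, with Neurod1 on 0 arrays, and their sums were 4.15 to 4.39 in Sirt1 KO, 4.19 to 4.64 in WT, 3.80 to 4.00 with resveratrol and 4.08 to 4.18 with DMSO. One of them, Nefl, a neurofilament gene, was ordered like Grin2c, with all 4 arrays of the 129/ICR cultures above all 4 of the C57BL/6 cultures, at 0.31 and 0.17 in Sirt1 KO, 0.58 and 0.21 in WT, -3.75 and -2.47 with resveratrol and -4.01 and -2.80 with DMSO. Its WT minus DMSO difference was 3.80 (SE 0.54; adjusted p = 0.0975, 1.3e-05 with the replicate block and 0.0118 with the slide block). The neuronal list as a whole did not share this order, with 3 markers higher and 4 lower in WT than in DMSO in both pairs (median -0.06). Bcas1, an oligodendrocyte lineage gene on the precursor list, differed by 1.44 in WT minus DMSO (SE 0.31; adjusted p = 0.291, 0.000327 with the replicate block and 0.022 with the slide block). It was not typical of that list, of which 2 were higher and 5 lower in WT than in DMSO in both pairs (median -0.09). Stem cell markers were kept for 12 of 12 and mature oligodendrocyte markers for 7 of 9. Of the endothelial markers 4 of 9 were kept, with Cdh5, Cldn5, Pecam1, Tek and Tie1 on 0 arrays, and of the microglial ones 2 of 9. The part of any of these in the receptor values was not tested.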

How the data were processed

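Cy3-labelled RNA was hybridised to 8 one-colour Agilent arrays. Agilent Feature Extraction gave the spot values, in version 10.7 by the submitters' processing notes and in version 10.7.3.1 by the file headers. What the authors deposited per array is a spot intensity, corrected for background by the scanner software per the file headers and not normalized between arrays. The authors' deposited value table holds log2 values, which served as an alternative. Flags of detection were used as the file headers give them. The headers name an older build than GRCm38.p6, the build of the RefSeq tables used for names and promoters.

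Outlier spots were dropped, spots of a probe averaged (41174 probes, of which 26918 had a symbol), and the log2 intensity was centred on the array's 75th percentile. In all 26361 probes were kept by the filter, and each gene was represented by its brightest kept probe. limma 3.58.1 in R 4.3.3 fitted 4 group means over 8 arrays with an intensity trend, and two-sided p-values were adjusted by Benjamini-Hochberg over 13332 genes, at 0.05. The script was tested on simulated data with independent noise and no replicate or slide effect. That test does not show the power of the fit on these arrays. The number of arrays limits the precision. Replicate number is sex and scan day together in the genotype groups, where replicate 2 also had its own slide, and slide in the treatment groups. It was therefore also fitted as a block within each arm, as was slide across all arrays. There were 19 alternatives in all, 2 of them (normexp on median signals, with an offset of 50, and with 1 background per array) chosen after seeing the data, since the files hold no mean signal.

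The receptor genes, 12 gene lists and the naming rule were chosen with earlier results of these data known. Counts cover all receptor genes, while the single values of some genes are not reported here. For the others, values on every array were given for those kept, and differences with their error for those with the same sign in both replicate pairs and a size of at least 0.5. Genes of the pathway lists were named at a size of at least 1 in both pairs' direction. Genes that were not well above background illustrate a list and were named after their values were seen, as were the carriers, the genes past the test with a block, the detected Slc17a, Cacng and Dlg4 genes, and the Gad1, Slc12a2, Aldoc and Apoe values.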

Additional observations from a re-analysis of the deposited data

Results flagged for a closer look

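For 6 of the receptor genes described, the female pair and the male pair gave Sirt1 KO minus WT differences of opposite sign, and none of these contrasts between the pairs was tested, since each pair holds 1 array per genotype. Sex cannot be told apart from slide here, as the male pair lay on a slide of its own. The female difference minus the male difference was 1.73 for Grin3b (0.19 and -1.55), 0.63 for Grik4 (0.22 and -0.41) and 0.51 for Gria2 (0.21 and -0.30). It was -1.16 for Gabra5 (-1.06 and 0.10), -0.55 for Grik2 (-0.14 and 0.41) and -0.46 for Grin2b (-0.10 and 0.36). Both male arrays of Grin3b, and WT 2 of Gabra5 and Grin2b, were not well above background with the probe used.

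Among the named receptor genes outside the filter, 2 had a probe well above background on 1 resveratrol array and at least 1 log2 unit above all 4 WT and DMSO arrays. A Grm7 probe read -1.35 on resveratrol 1 and -4.85 on resveratrol 2, with DMSO at -5.54 and -5.04 and WT at -5.66 and -4.08. The Grm6 probe read -3.96 on resveratrol 2 and -7.70 on resveratrol 1, with DMSO at -8.18 and -7.18 and WT at -7.93 and -6.03. Each rests on a single array.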

How the results depend on the processing

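The counts of calls depended on the block. With replicate number as a block, 57 genes passed between Sirt1 KO and WT, 73 between resveratrol and DMSO and 49 for the difference of differences, against 0 in each without it, and 1570 between WT and DMSO against 10. Receptor genes past the test were then 1, 0, 1 and 8. For WT minus DMSO that fit leaves the spread between replicates out of the error, so its counts may be too high. With slide as a block WT minus DMSO had 145 genes and 2 receptor genes, and the other 3 comparisons 0 of each. Deviations from the group mean correlated across genes between same-numbered arrays at 0.737 (Sirt1 KO and WT) and 0.834 (resveratrol and DMSO). They also did so between strains, at 0.596 (WT and DMSO) and 0.642 (Sirt1 KO and resveratrol). The correlations therefore do not test whether a number marks a shared litter or culture, and no label says that it does. WT minus DMSO had 4 genes under normexp on median signals and 4 where probes had to be well above background on all 8 arrays. Leaving out 1 array gave 0 to 5 genes for Sirt1 KO minus WT, 0 to 3 for the difference of differences and 0 to 4 for WT minus DMSO, with 0 receptor genes in each.

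Of 392 values of the 21 named differences under alternatives, 387 kept their sign. Dropping the intensity trend, the replicate block and leaving out an array outside the comparison cannot change a fitted difference of these genes. Each named difference was also chosen for the same sign in both pairs, so much of this count was fixed in advance. In Sirt1 KO minus WT, Gabra2 turned to 0.16 without Sirt1 KO 2 and 0.25 without WT 1, and Gabrb1 to -0.21 without WT 2, within ranges over left-out arrays of -1.30 to 0.25 and -0.21 to 1.56. Gabrb1 also turned under normexp on median signals (-0.69), as it did in WT minus DMSO (0.48). The cause was not tested. The median receptor difference ran from -0.35 to 0.04 in Sirt1 KO minus WT, from -0.21 to 0.06 in resveratrol minus DMSO and from 0.15 to 0.50 in WT minus DMSO. The number of receptor genes kept was 28 if every probe had to pass, 32 for any probe on each array, and 39 with the scanner's other detection flag. The planned normexp on mean signals was not run, and the same correction on median signals took its place.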
